A study of Mus musculus with 5 samples.

Results

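Cholesterol genes were followed across 3 kinds of mouse cell on 5 single-colour microarrays. The set covers the mevalonate and sterol pathway, its control by the SREBP proteins, and the uptake, storage and export of cholesterol. Members were all probes named in the platform annotation with a symbol from a list of 34 genes, and 31 of these had a named probe, out of 19084 genes measured. Acat2, Hmgcs1 and Soat1 were not analysed here. The iLC group is 2 arrays of mouse embryonic fibroblasts, from embryos of 13.5 days, that received Dmrt1, Gata4 and Nr5a1 by lentivirus and are labelled induced Leydig-like cells. Per the labels' protocols, virus was left on for 12 hours, and cells were then kept in a medium containing IGF (50 ng/ml) and PDGFAA (10 ng/ml, a growth factor). For the Leydig group, 2 arrays hold cells isolated from testes of mice aged 56 days. The MEF group is 1 array of embryonic fibroblasts given a mock vector. One protocol text is repeated for all samples. It leaves unclear which medium the mock cells had and how pure the Leydig cells were. The labels do not state whether the arrays of a pair are separate cultures or animals, so p-values measure only the spread between these arrays. The number of arrays limits the precision. The MEF array has no replicate and was assumed to vary like the pairs.

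Cells make cholesterol from acetyl-CoA through mevalonate, isoprenoids, squalene and lanosterol. When sterols in the endoplasmic reticulum run low, SCAP escorts the SREBP transcription factors to the Golgi, where they are cut and released to switch on the enzymes of the pathway; when sterols are plentiful, INSIG proteins hold SCAP back. Excess cholesterol is esterified into lipid droplets or exported by ABCA1 and ABCG1, whose genes are switched on by the sterol-sensing LXR receptors. Leydig cells use cholesterol as the starting material of testosterone and obtain it by synthesis, from lipoproteins and from stored esters.

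The labelled cell types were checked against their markers, with intensities summed over each list. Leydig markers (6 of 9 measured) summed to 91270.4 and 113619 on the iLC arrays, 329985 and 362023 on the Leydig arrays and 7861 on the MEF array. Hsd3b1, Cyp17a1 and Nr5a1 made up most of the sum on the Leydig arrays and Star and Hsd3b1 most of it on the iLC arrays, while the probe for Cyp11a1, a defining steroidogenic enzyme, read 603 and 907 on the iLC arrays, 509.8 and 451 on the Leydig arrays and 562 on the MEF array. Of the delivered factors, Dmrt1, Gata4 and Nr5a1 differed between iLC and MEF by -0.07, -0.91 and 0.06 on the log2 scale (adjusted p = 0.953, 0.368 and 0.964), and whether their probes read the delivered copies is not known. Array medians lay between 1111 and 1230.0. Fibroblast markers (10 of 10) summed to 799665 and 642784 on the iLC arrays, 615929 and 372259 on the Leydig arrays and 1175210.0 on the MEF array. Dcn and Pdgfra made up most of that sum on the Leydig arrays. Between Leydig cells and MEF 3 of the 10 fibroblast markers had positive differences and 7 negative ones. Sertoli markers (8 of 8, mostly Clu) summed to 55355 and 91549 on the iLC arrays, 343325 and 377242 on the Leydig arrays and 30358 on the MEF array. Germ cell markers (8 of 8) summed to 6845 and 5579 on the iLC arrays, 23421 and 377769 on the Leydig arrays and 6535 on the MEF array, so Leydig replicate 2 stood apart by its spermatid transcripts. Macrophage markers (15 of 16) summed to 62665 and 132470.0 on the iLC arrays, 41921 and 40037 on the Leydig arrays and 263245 on the MEF array, cell division markers (9 of 10) to 61318 and 40657 on the iLC arrays, 48428 and 46554 on the Leydig arrays and 273212 on the MEF array and endothelial markers (5 of 5) to 6017 and 6899 on the iLC arrays, 14312 and 9959 on the Leydig arrays and 6426 on the MEF array. Mki67 made up most of the cell division sum on the iLC and Leydig arrays and read 36627 on the MEF array. All 9 division markers had negative differences from MEF, in iLC and in Leydig cells. No marker was at 0 on any array. In such bulk samples, fewer cells of a type and less RNA per cell cannot be told apart.

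Promoters of cholesterol genes are shown first. RefSeq windows (build GRCm38.p6) of the 250 bases before the start were matched by symbol for 24 of the 31 members, some with several starts. Those below belong to Cyp51, Idi1, Sc5d and Insig1, whose levels in iLC were far under those in Leydig cells, and to the exporter gene Abca1, for which this was not so. They are written 5′ to 3′ on the gene's strand, and capitals mark the CCAAT box, the letters read by the factor NF-Y, on either strand (ATTGG on the other).
Cyp51 (chr5:4104698-4104947, minus strand): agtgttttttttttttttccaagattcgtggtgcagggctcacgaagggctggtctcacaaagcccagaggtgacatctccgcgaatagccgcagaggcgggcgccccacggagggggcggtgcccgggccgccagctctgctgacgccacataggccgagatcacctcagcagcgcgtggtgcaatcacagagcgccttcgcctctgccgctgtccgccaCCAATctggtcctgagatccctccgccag
Idi1 (chr13:8885356-8885605, plus strand): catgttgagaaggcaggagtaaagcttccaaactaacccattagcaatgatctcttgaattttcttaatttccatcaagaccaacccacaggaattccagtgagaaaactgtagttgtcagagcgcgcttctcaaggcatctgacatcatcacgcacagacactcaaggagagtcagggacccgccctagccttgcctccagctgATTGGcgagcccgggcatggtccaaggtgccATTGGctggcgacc
Sc5d (chr9:42264301-42264550, minus strand): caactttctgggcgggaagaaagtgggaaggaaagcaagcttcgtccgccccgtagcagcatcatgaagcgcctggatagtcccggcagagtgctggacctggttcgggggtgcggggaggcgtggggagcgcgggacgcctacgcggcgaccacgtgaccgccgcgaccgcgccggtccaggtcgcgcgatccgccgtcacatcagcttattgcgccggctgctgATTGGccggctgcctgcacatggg
Insig1 (chr5:28071162-28071411, plus strand): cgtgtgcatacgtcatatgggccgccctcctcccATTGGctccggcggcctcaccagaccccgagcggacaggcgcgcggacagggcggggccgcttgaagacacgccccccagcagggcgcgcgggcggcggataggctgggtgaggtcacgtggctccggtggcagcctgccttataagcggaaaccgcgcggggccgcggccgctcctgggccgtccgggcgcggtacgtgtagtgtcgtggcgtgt
Abca1 (chr4:53159896-53160145, minus strand): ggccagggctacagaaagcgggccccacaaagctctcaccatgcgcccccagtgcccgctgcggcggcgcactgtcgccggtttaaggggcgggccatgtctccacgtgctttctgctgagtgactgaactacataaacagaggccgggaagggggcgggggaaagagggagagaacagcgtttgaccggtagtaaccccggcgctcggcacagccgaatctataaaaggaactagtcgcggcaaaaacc
CCAAT stood in the windows of 20 of the 24 members and of all 13 synthesis enzymes that had one, against 37.5% of the 27025 genes with a window. All 9 members with a window that were called lower in iLC than in Leydig cells had it. So did Insig2, Lipa, Npc2 and Plin2, whose differences there were positive and did not pass the test. Counted by window, it stood in 21 of 35 member windows (60%) and 33.8% of all 32851. The matches nearest the start were 14 bases before it for Idi1, 24 for Sc5d and 29 for Cyp51, whereas the Insig1 match lay 216 bases before the start. The strict core of the sterol regulatory element, TCACNCCAC on either strand, was in 0 of 24 members' windows and 1.22% of all genes', which says only that these letters are not in these windows. The NR5A1 recognition letters AAGGTCA were found for Dhcr7 alone among the members, 51 bases before 1 of its 3 starts (4.17% of members, 4.7% of all genes), and the GATA letters AGATAA for Npc2 alone (4.17%, against 11.4% of all genes). The last letters of AAGGTCA are the first of TCACNCCAC, so those motifs can overlap, but no member's window held both. A match is a description of the sequence only.

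**Figure D1:**
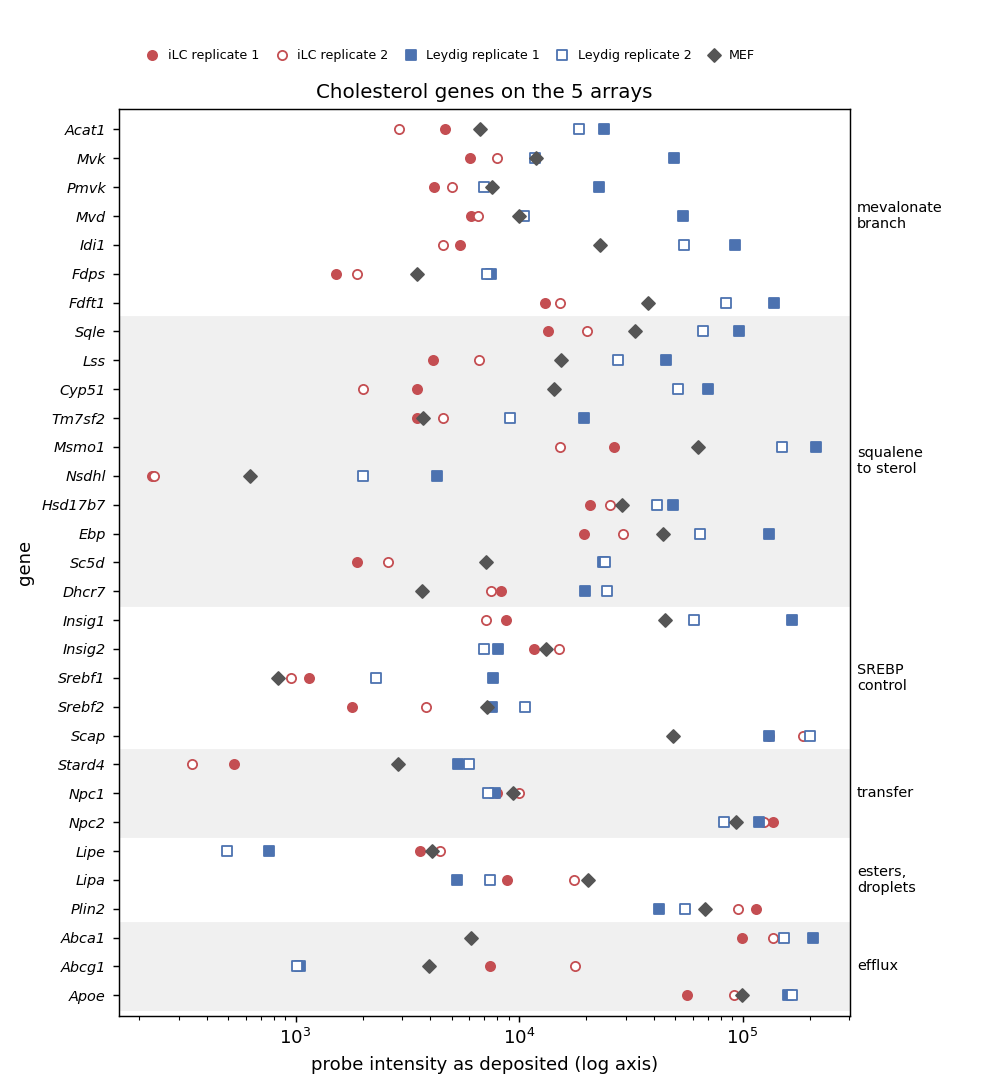
Probe intensity as deposited (horizontal log axis) for the 31 cholesterol genes, grouped by role, with 1 point for each iLC, Leydig and MEF array. For 13 of 17 synthesis enzymes both iLC points lie left of the MEF point and both Leydig points right of it, while for Abca1 the MEF point stands alone on the left; levels are to be compared along a row only.

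The submitters' design names the comparisons of iLC with MEF and of iLC with Leydig cells, and the second gave the largest number of calls among cholesterol genes. All 17 synthesis enzymes measured had a negative difference, and 12 were lower in iLC by the limma test over all genes (adjusted p under 0.05), while 5, among them Mvk, Pmvk and Mvd, did not pass. Across all genes tested 5.65% were called lower and 5.72% higher in this comparison. The median log2 difference of the 17 enzymes was -2.29, with a range of -4.50 to -0.97, against a median of -0.03 over all genes. At an unadjusted p under 0.05 all 17 were lower, as were 14.7% of all genes. For 16 of them both iLC arrays read below the Leydig arrays with a difference of at least 1, as did 13.8% of all genes. All differences here are on the log2(intensity + 16) scale.

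In the mevalonate branch 4 of 7 enzymes fell in iLC relative to Leydig cells, namely Acat1, Idi1, Fdps and Fdft1. Idi1, which interconverts the basic isoprenoid units, read 5452 and 4571 on the iLC arrays, against 92830.1 and 54784 on the Leydig arrays, a 14.2-fold lower level with a log2 difference of -3.83 ± 0.37 (SE, adjusted p = 0.00246). Fdft1, squalene synthase and the first enzyme committed to sterols, read 13024 and 15251 on the iLC arrays, against 138892 and 84327 on the Leydig arrays (7.67-fold lower, log2 difference -2.94 ± 0.37 SE, adjusted p = 0.00569). Neither pair came near the other. Acat1 is a mitochondrial thiolase that serves ketone bodies and was counted here with this branch. It read 4655 and 2915 on the iLC arrays, against 24039 and 18566 on the Leydig arrays, a difference of -2.51 (adjusted p = 0.00987). Fdps, which makes farnesyl diphosphate, read 1519.8 and 1877 on the iLC arrays, against 7519 and 7162 on the Leydig arrays, a difference of -2.11 (adjusted p = 0.00991), with the closest Leydig pair of the branch. The other 3 enzymes act in sequence on mevalonate and shared a different shape. Mvk, mevalonate kinase, read 6038 and 8009 on the iLC arrays, against 49609 and 11844 on the Leydig arrays, a difference of -1.80 (adjusted p = 0.149). Pmvk, the kinase of the next step, read 4149 and 5018 on the iLC arrays, against 22877 and 6996 on the Leydig arrays, a difference of -1.47 (adjusted p = 0.167). Mvd, the decarboxylase after it, read 6121 and 6527 on the iLC arrays, against 53879.6 and 10507 on the Leydig arrays, a difference of -1.91 (adjusted p = 0.16). In these 3 Leydig replicate 2 lay far nearer to the iLC arrays than Leydig replicate 1 did, and without Leydig replicate 1 their differences were -0.77, -0.61 and -0.73.

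From squalene onward 8 of 10 enzymes fell. Cyp51, the cytochrome P450 that demethylates lanosterol, had the largest difference of all members: it read 3492 and 2002 on the iLC arrays, against 69773 and 51588 on the Leydig arrays, 22.6-fold lower in iLC (-4.50 ± 0.39 SE, adjusted p = 0.00194). Nsdhl, a sterol dehydrogenase of the same demethylation stage, read 227 and 233 on the iLC arrays, against 4284 and 1999 on the Leydig arrays (12-fold lower, log2 difference -3.58 ± 0.43 SE, adjusted p = 0.00499), and Msmo1, the oxidase of that stage, read 26554 and 15197 on the iLC arrays, against 214157 and 150040.0 on the Leydig arrays (8.92-fold lower, log2 difference -3.16 ± 0.40 SE, adjusted p = 0.00606). The iLC readings of Nsdhl are dim, and whether they lie above background is not known from the sources used here. These 3 enzymes of lanosterol demethylation thus had iLC levels far outside the Leydig pair. Sc5d, a late desaturase, read 1892 and 2582 on the iLC arrays, against 23709.6 and 24169 on the Leydig arrays, a difference of -3.43 (adjusted p = 0.00223), with the Leydig arrays almost equal. Lss, which closes squalene epoxide into lanosterol, read 4137 and 6603 on the iLC arrays, against 45228 and 27581 on the Leydig arrays, a difference of -2.75 (adjusted p = 0.01). Sqle, the epoxidase before it and a control point of the route, read 13433 and 20078 on the iLC arrays, against 96377 and 66726 on the Leydig arrays, a difference of -2.29 (adjusted p = 0.0139). For both, the higher iLC array was still well under the lower Leydig array. Ebp, a sterol isomerase, read 19498 and 29253 on the iLC arrays, against 132026 and 64656 on the Leydig arrays, a difference of -1.95 (adjusted p = 0.0426). Dhcr7, a reductase that ends 1 route to cholesterol, read 8316 and 7482 on the iLC arrays, against 19731 and 24643 on the Leydig arrays, the smallest called difference at -1.48 (adjusted p = 0.0331). Tm7sf2, a sterol reductase that shares its reaction with the lamin B receptor, and Hsd17b7, a ketosteroid reductase, did not pass, although Tm7sf2 did under 6 of 14 alternatives. Tm7sf2 read 3492 and 4551 on the iLC arrays, against 19623 and 9084 on the Leydig arrays, a difference of -1.74 (adjusted p = 0.0594), and Hsd17b7 20733 and 25491 on the iLC arrays, against 48807 and 41451 on the Leydig arrays, one of -0.97 (adjusted p = 0.111).

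**Figure D2:**
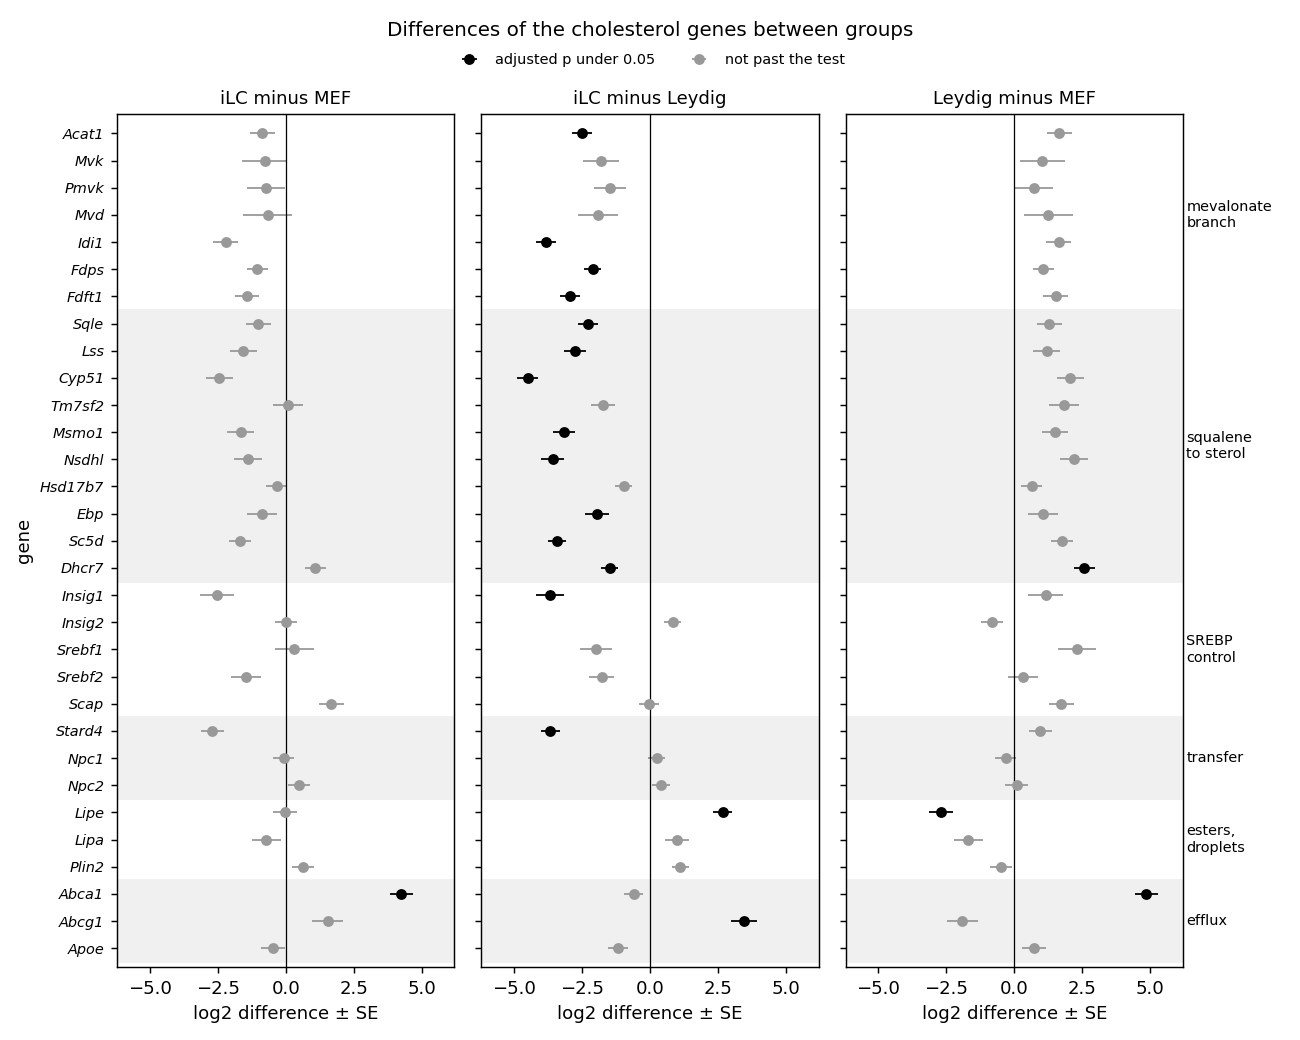
Log2 differences of the 31 genes with standard errors in the 3 comparisons, iLC minus MEF, iLC minus Leydig and Leydig minus MEF; black points have an adjusted p under 0.05 and grey points do not. Between iLC and Leydig cells all 17 synthesis enzymes lie left of 0 and 12 of them are black, and between iLC and MEF the single black point is Abca1.

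Of the SREBP control genes Insig1 fell in iLC relative to Leydig cells and the other 4 did not pass. Across all genes 5.65% were called lower and 5.72% higher there. Insig1, itself a target of SREBP, read 8699 and 7136 on the iLC arrays, against 166211 and 60609 on the Leydig arrays (12.7-fold lower, log2 difference -3.67 ± 0.52 SE, adjusted p = 0.00842). Insig2, the other retention protein, which in mouse is less dependent on SREBP, read 11706 and 15159.6 on the iLC arrays, against 8032 and 6994 on the Leydig arrays, a difference in the opposite direction of 0.83 (adjusted p = 0.164). The iLC pair was thus below the Leydig pair for Insig1 and above it for Insig2, with no overlap for either. Srebf2, the SREBP gene most tied to cholesterol synthesis, read 1779.9 and 3817 on the iLC arrays, against 7556 and 10595 on the Leydig arrays, a difference of -1.77 (adjusted p = 0.0583). Srebf1, the SREBP gene more tied to fatty acids, read 1152 and 954 on the iLC arrays, against 7648 and 2298 on the Leydig arrays, a difference of -1.98 (adjusted p = 0.0833). Both missed the threshold, and of 14 alternatives Srebf2 passed it under 6 and Srebf1 under 4. Scap, the SREBP escort, read 131768 and 187127 on the iLC arrays, against 130849 and 200402 on the Leydig arrays, overlapping, with a difference of -0.04 (adjusted p = 0.955).

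Among the transfer, ester and export genes 1 fell and 2 rose in iLC relative to Leydig cells, where 5.65% of all genes fell and 5.72% rose. Stard4, which moves sterol between membranes and is an SREBP target, read 530.3 and 345 on the iLC arrays, against 5332 and 5947 on the Leydig arrays (12.7-fold lower, log2 difference -3.67 ± 0.35 SE, adjusted p = 0.00223). Npc1 and Npc2, which together pass cholesterol out of lysosomes, differed by 0.24 (adjusted p = 0.673) and 0.40 (adjusted p = 0.506). Stard4 was thus among the members with the largest differences, and the lysosomal pair did not pass the test. Lipe, the hormone-sensitive lipase that frees cholesterol from stored esters, read 3587 and 4447 on the iLC arrays, against 760.1 and 493 on the Leydig arrays, 6.38-fold higher in iLC (2.67 ± 0.36 SE, adjusted p = 0.00696). Lipa, the lysosomal ester hydrolase, read 8803 and 17546 on the iLC arrays, against 5276 and 7393 on the Leydig arrays, a difference of 0.99 (adjusted p = 0.209). Plin2, a coat protein of lipid droplets, read 115276 and 95014 on the iLC arrays, against 42261 and 55045 on the Leydig arrays, a difference of 1.12 (adjusted p = 0.0836). Of the 3 ester and droplet genes Lipe alone passed. Abcg1, an exporter to mature HDL, read 7427 and 17725 on the iLC arrays, against 1050.4 and 1016 on the Leydig arrays, 11-fold higher in iLC (3.45 ± 0.46 SE, adjusted p = 0.00716), although the iLC arrays themselves lay apart. Abca1, the exporter to lipid-poor apolipoprotein, read 99372 and 137554 on the iLC arrays, against 206191 and 152879 on the Leydig arrays, a difference of -0.60 (adjusted p = 0.335). Apoe, an apolipoprotein that takes up exported cholesterol, read 56584 and 91564 on the iLC arrays, against 160157 and 167079 on the Leydig arrays, a difference of -1.18 (adjusted p = 0.0911). Macrophages carry Abcg1, Lipa and Apoe, and the 15 macrophage markers summed to 62665 and 132470.0 on the iLC arrays, 41921 and 40037 on the Leydig arrays and 263245 on the MEF array. Lipa had the order of that sum over the 3 groups, with 20278 on the MEF array. Abcg1 did not, with 3939 on the MEF array and more on both iLC arrays, and neither did Apoe, which was highest on the Leydig arrays. Within the iLC pair Abcg1, Lipa and Apoe were all higher on replicate 2, as was the macrophage sum. Replicate 1 was the higher of that pair for 37.7% of all genes. The part of macrophages in the result was not tested.

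In all, 16 of 31 cholesterol genes were called between iLC and Leydig cells, 14 lower and 2 higher (11.4% of all genes were called in either direction). Cyp51, Idi1, Sc5d, Stard4, Nsdhl and Fdft1 kept their calls whichever of the 4 paired arrays was left out (highest adjusted p = 0.0417, for Fdft1). The other 10 lost theirs without at least 1 array. Without iLC replicate 1 the calls of Dhcr7, Ebp, Fdps, Lss and Sqle were lost (adjusted p = 0.0623 to 0.19), and without iLC replicate 2 those of Acat1, Dhcr7, Ebp and Insig1 (0.0542 to 0.135). Without Leydig replicate 1 those of Abcg1, Acat1, Dhcr7, Ebp, Fdps, Lss, Msmo1 and Sqle were lost (0.0533 to 0.148), leaving 8, and without Leydig replicate 2 those of the same 8 and Lipe (0.053 to 0.154), leaving 10 because Mvd, Mvk and Srebf1 were then called. Ebp also lost its call with 1 added (adjusted p = 0.0703) and with the 1st percentile subtracted (0.0761), and under the settings without such omissions 15 to 19 members were called, or 22 with the replicate number as a block. Each omission takes 1 of 2 residual degrees of freedom. The median of the 31 genes was -1.80, or -1.21 without Leydig replicate 1 and -2.32 without Leydig replicate 2. Other probes of 6 members went the same way in this comparison except for the dimmer of 2 further probes of Pmvk (0.14): the second probe gave -1.60 for Acat1, -3.43 for Cyp51, -1.47 for Fdft1, -1.56 for Pmvk, 0.74 for Npc2 and 3.28 for Abcg1.

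**Figure D3:**
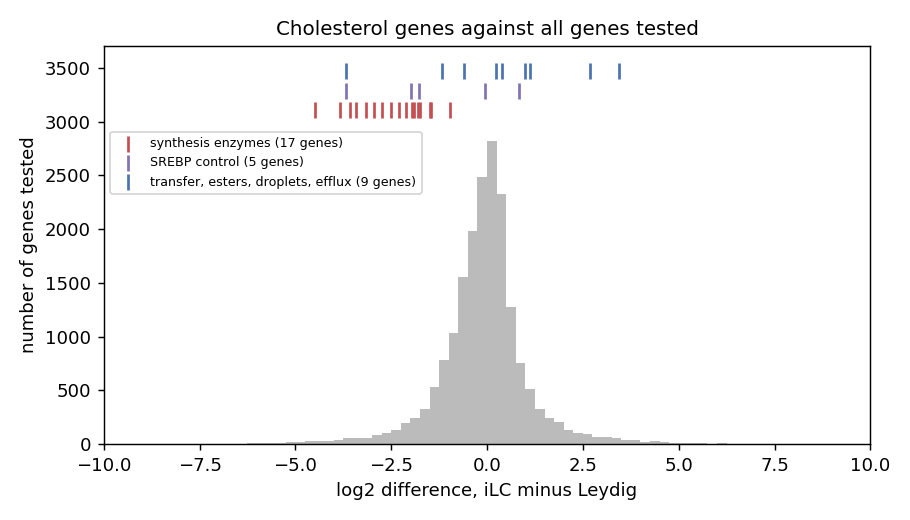
Histogram of the log2 difference, iLC minus Leydig, over the 19084 genes tested (bars), with a tick above it for each cholesterol gene by role. All 17 ticks of the synthesis enzymes lie between -4.50 and -0.97, while those of the transfer, ester, droplet and efflux genes spread from -3.67 to 3.45.

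Per the labels, iLC received 3 factors where MEF received a mock vector. Abca1 rose and no cholesterol gene fell past the test, where 0.278% of all genes were called higher and 0.283% lower (53 and 54 genes, or 156 and 258 with arrays centred on their medians). Abca1 read 99372 and 137554 on the iLC arrays, against 6107 on the MEF array, 19.1-fold higher (4.26 ± 0.43 SE, adjusted p = 0.0281). Its call was lost when any 1 paired array was left out (adjusted p = 0.124 to 0.145), as the comparison as a whole then gave 0 calls by limma, while the difference stayed between 4.02 and 4.49. It was also lost with 1 added (0.0712) and with the 1st percentile subtracted (0.0804). The fit with only the iLC and MEF arrays gave the same values as leaving out 1 Leydig array, so it is not a separate loss. The 2 other exporter genes did not pass. Abcg1 read 7427 and 17725 on the iLC arrays, against 3939 on the MEF array, a difference of 1.54 (adjusted p = 0.275), and Apoe 56584 and 91564 on the iLC arrays, against 99015 on the MEF array, one of -0.46 (adjusted p = 0.672).

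Synthesis enzymes had mostly negative differences between iLC and MEF without any passing over all genes. The median of the 17 was -1.01, against -0.11 over all genes, with 15 below 0. Quantile normalization moved the median over all genes to 0.05, while that over the 31 members was then -0.75, against -0.73 without it. At an unadjusted p under 0.05, 8 were lower and 1 higher, while 10.2% of all genes were lower and 5.55% higher by that rule. Cyp51 read 3492 and 2002 on the iLC arrays, against 14346 on the MEF array, a difference of -2.43 ± 0.48 (SE, adjusted p = 0.0916). Idi1 read 5452 and 4571 on the iLC arrays, against 23106 on the MEF array, a difference of -2.21 ± 0.46 (SE, adjusted p = 0.101). Both iLC arrays were thus several fold under the MEF array for these enzymes. Cyp51 and Idi1 each passed the test under 1 of 13 alternatives. Outside synthesis the largest negative differences were those of Stard4 and Insig1. Stard4 read 530.3 and 345 on the iLC arrays, against 2883 on the MEF array, a difference of -2.71 ± 0.42 (SE, adjusted p = 0.0622), and Insig1 8699 and 7136 on the iLC arrays, against 45184 on the MEF array, one of -2.52 ± 0.63 (SE, adjusted p = 0.146). Both were short of the threshold, although Stard4 passed it under 5 of 13 alternatives. Dhcr7 ran against the other enzymes: it read 8316 and 7482 on the iLC arrays, against 3695 on the MEF array, a positive difference of 1.09 (adjusted p = 0.256). Tm7sf2 (0.09) and Insig2 (0.01) had differences near 0 whose sign turned under 1 or 2 alternatives. Srebf2 read 1779.9 and 3817 on the iLC arrays, against 7175 on the MEF array, a difference of -1.45 (adjusted p = 0.288), and Scap 131768 and 187127 on the iLC arrays, against 49075 on the MEF array, a positive one of 1.68 (adjusted p = 0.17). Acat1 depends on its probe, with a difference of -0.86 by the probe used and 0.25 by its second probe. Cell division markers summed to 61318 and 40657 on the iLC arrays, 48428 and 46554 on the Leydig arrays and 273212 on the MEF array, and their part in the result was not tested. The isoprenoid branch, which leads from the same mevalonate to ubiquinone, dolichol and prenylated proteins, had a median of 0.02 with none of 14 genes past the test.

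The third comparison, of Leydig cells with MEF, is not named in the submitters' design. Between them 2 cholesterol genes were higher and 1 was lower, where 3.34% of all genes were called higher and 3.97% lower. Abca1 rose 29-fold (4.86 ± 0.43 SE, adjusted p = 0.0039), with 206191 and 152879 on the Leydig arrays and 6107 on the MEF array, and it stayed called whichever paired array was left out. On all 4 iLC and Leydig arrays it was thus far above the MEF array. Dhcr7 rose to 19731 and 24643 on the Leydig arrays, against 3695 on the MEF array (2.57 ± 0.38 SE, adjusted p = 0.0152). Lipe fell to 760.1 and 493 on the Leydig arrays, against 4061 on the MEF array (-2.70 ± 0.43 SE, adjusted p = 0.0188). Both lost their calls without Leydig replicate 1 (adjusted p = 0.0537 for Dhcr7 and 0.0519 for Lipe) and without Leydig replicate 2 (0.0842 for Dhcr7 and 0.0924 for Lipe). All 17 synthesis enzymes had positive differences, with a median of 1.50 against -0.10 over all genes and a range of 0.64 to 2.57. At an unadjusted p under 0.05, 11 of the 17 were higher, where 9.14% of all genes were. Nsdhl read 4284 and 1999 on the Leydig arrays, against 629 on the MEF array, a difference of 2.19 (adjusted p = 0.0637). Srebf1 read 7648 and 2298 on the Leydig arrays, against 836 on the MEF array, a difference of 2.31 (adjusted p = 0.128) with the Leydig arrays far apart. Neither passed the test, although Nsdhl did under 4 of 12 alternatives. Cyp51 and Sc5d, which did not pass either, did so under 5 of 13 alternatives each. The 3 comparisons share arrays, so their values stand side by side and are not independent of each other.

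The order of the 3 groups was examined for each gene after these values had been seen. For 17 of 31 cholesterol genes, including 13 of the 17 synthesis enzymes, both iLC arrays read below the MEF array and both Leydig arrays above it, where 8.42% of all genes had that order. The synthesis enzymes outside it were Mvk and Pmvk, for which Leydig replicate 2 read just under the MEF array, Tm7sf2, for which the MEF array lay between the iLC arrays, and Dhcr7, for which the MEF array was lowest. Acat1 had the order by the probe used, but its second probe read 967 and 874 on the iLC arrays, against 770 on the MEF array. Beyond synthesis the order held for Insig1, Srebf2, Stard4 and Apoe.

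The Leydig arrays differed from each other in these genes. Leydig replicate 1 read above replicate 2 for 15 of 17 synthesis enzymes, with a median log2 difference of 0.71, against 54.7% of all genes and a median of 0.06. The gap was at least 1 for 6 of the 17, where 3.88% of all genes had such a gap. It was 2.36 for Mvd, 2.06 for Mvk and 1.71 for Pmvk. Tm7sf2 (1.11), Nsdhl (1.09) and Ebp (1.03) were the others, and Srebf1 (1.73) and Insig1 (1.46) had gaps of that size outside synthesis. The second Pmvk probe had it too, with 12469 on replicate 1 and 3305 on replicate 2. Sc5d (-0.03) and Dhcr7 (-0.32) were the 2 enzymes for which replicate 1 did not read above replicate 2. Between the iLC arrays, replicate 1 was above replicate 2 for 5 of 17 enzymes, with a median of -0.27, against 37.7% of all genes and a median of -0.14. Over the 31 genes the root mean square standard deviation between paired arrays was 0.39 for iLC and 0.65 for Leydig cells, against 0.46 and 0.55 over all genes. Leydig replicate 2, with the lower synthesis readings, has the high germ cell marker sum (377769, against 23421 on replicate 1). Its Leydig marker sum was 362023, against 329985 on replicate 1, and its fibroblast marker sum 372259, against 615929. The part of these differences in the result was not tested.

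**Figure D4:**
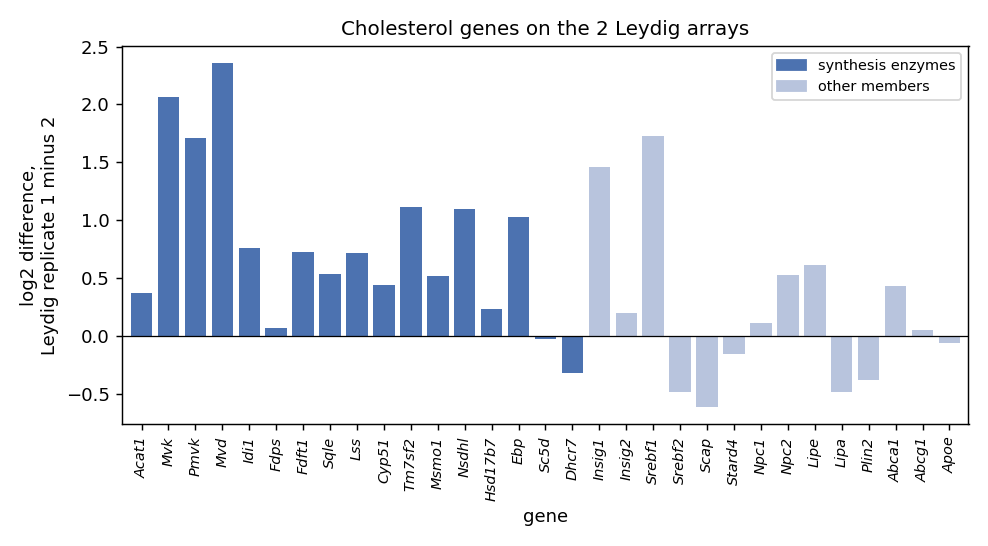
Log2 difference between the Leydig arrays, replicate 1 minus replicate 2, for each cholesterol gene (bars from 0), with synthesis enzymes in dark blue. The bars of Mvd, Mvk and Pmvk reach 2.36, 2.06 and 1.71, and 15 of the 17 dark bars point up.

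Genes beside the core pathway were read from lists that name its neighbours. Between iLC and Leydig cells 2 of 16 fatty acid synthesis genes were called, both lower in iLC (median -0.99). Across all genes 5.65% were called lower there. At an unadjusted p under 0.05, 10 of the 16 were lower, as were 14.7% of all genes. With a difference of at least 1 and no overlap 8 were lower, as were 13.8% of all genes. A negative difference was found for 14 of the 16, and all 16 had a positive one between Leydig cells and MEF. Fasn, fatty acid synthase, differed by -1.99 (adjusted p = 0.0161) and Thrsp, a lipogenic regulator, by -2.35 (adjusted p = 0.0168). On the iLC arrays Fasn read 198 and 209 and Thrsp 51 and 115. These readings are dim and may not lie above background. Relative to MEF none passed in iLC (median -0.08), and in Leydig cells Gpam, an acyltransferase of triglyceride synthesis (3.01, adjusted p = 0.02), and Me1, malic enzyme (2.59, adjusted p = 0.0286), were higher. Of 12 genes for SREBP processing and for the partner factors NF-Y and Sp1, none passed in any comparison. The 3 NF-Y subunit genes Nfya, Nfyb and Nfyc differed by -0.08, 1.03 and -1.07 between iLC and Leydig cells; Rnf139 (-1.15), which encodes a sterol-responsive ubiquitin ligase, had the largest difference of the list there, ahead of Nfyc. None of the 14 isoprenoid branch genes passed either (median -0.04), and its largest differences were those of Icmt (1.24), which methylates prenylated proteins, and Nus1 (0.96), which acts in dolichol synthesis.

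Of 7 further genes of cholesterol uptake and synthesis, 5 of them receptors, 2 rose in iLC relative to Leydig cells, where 5.72% of all genes were called higher. Vldlr, a lipoprotein receptor, read 5736 and 9069.9 on the iLC arrays, against 1724 and 752 on the Leydig arrays, a difference of 2.64 (adjusted p = 0.0207), and Mylip, which marks lipoprotein receptors for breakdown, 5314 and 4414 on the iLC arrays, against 1410.4 and 1006 on the Leydig arrays, one of 2.01 (adjusted p = 0.0153). None of the 7 passed in either comparison with MEF. Scarb1, 1 of the receptors, had the largest of their differences between iLC and MEF, 2.53 (adjusted p = 0.0992). It read 114056 and 197592 on the iLC arrays, 61600 and 37023 on the Leydig arrays and 25910 on the MEF array. Relative to Leydig cells Scarb1 differed by 1.65 in iLC, also without passing the test (adjusted p = 0.0606). Of 12 LXR genes and targets relative to Leydig cells, 1 was higher (Mylip again) and 3 were lower in iLC (median -0.52), where 5.65% of all genes were called lower. Pltp, a phospholipid transfer protein, read 2598 and 3017 on the iLC arrays, against 37413 and 35851 on the Leydig arrays, a difference of -3.70 (adjusted p = 0.0018). Apoc1, an apolipoprotein, read 4373 and 3627 on the iLC arrays, against 27656 and 74369.7 on the Leydig arrays, a difference of -3.50 (adjusted p = 0.00947), and Lpcat3, a lysophospholipid acyltransferase, differed by -2.48 (adjusted p = 0.0125). Abca1, also an LXR target, differed by -0.60 ± 0.35 (SE) without passing the test, while Pltp was 13-fold and Apoc1 11.3-fold lower there. Leydig cells had more Pltp (2.99, adjusted p = 0.00911) and Apoc1 (5.97, adjusted p = 0.00572) than MEF, and none of the 12 passed between iLC and MEF.

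Sterol transfer and droplet genes beyond the members were counted too. Across all genes 5.72% were called higher and 5.65% lower between iLC and Leydig cells. Between Leydig cells and MEF 3.34% were called higher and 3.97% lower. Of 18 transfer genes none passed between iLC and Leydig cells (median -0.09) or between iLC and MEF (median 0.19). Star, which brings cholesterol into mitochondria for steroid synthesis, had the largest differences of that list, 3.63 (adjusted p = 0.0984) against Leydig cells and 6.51 (adjusted p = 0.107) against MEF, and read 56878 and 73892 on the iLC arrays, 1368 and 19703 on the Leydig arrays and 695 on the MEF array. The Leydig arrays were far apart for it. Gramd1b, which carries cholesterol from the plasma membrane to the endoplasmic reticulum, was the 1 call between Leydig cells and MEF (3.20, adjusted p = 0.0122) and read 22116 and 14681 on the iLC arrays, 22739 and 30735 on the Leydig arrays and 2858 on the MEF array. On the iLC arrays it differed from the Leydig arrays by -0.55 and read above the MEF array without passing the test (2.65, adjusted p = 0.0708). Of 18 other droplet genes, Hilpda, a droplet protein induced by low oxygen, was higher in iLC than in Leydig cells (1.92, adjusted p = 0.0229), and Plin1, the droplet coat typical of fat and steroidogenic cells, was lower (-3.24, adjusted p = 0.0466). Plin1 read 1999 and 2021 on the iLC arrays, 8062 and 45559 on the Leydig arrays and 1756 on the MEF array, so its call rests on Leydig arrays far apart.

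**Figure D5:**
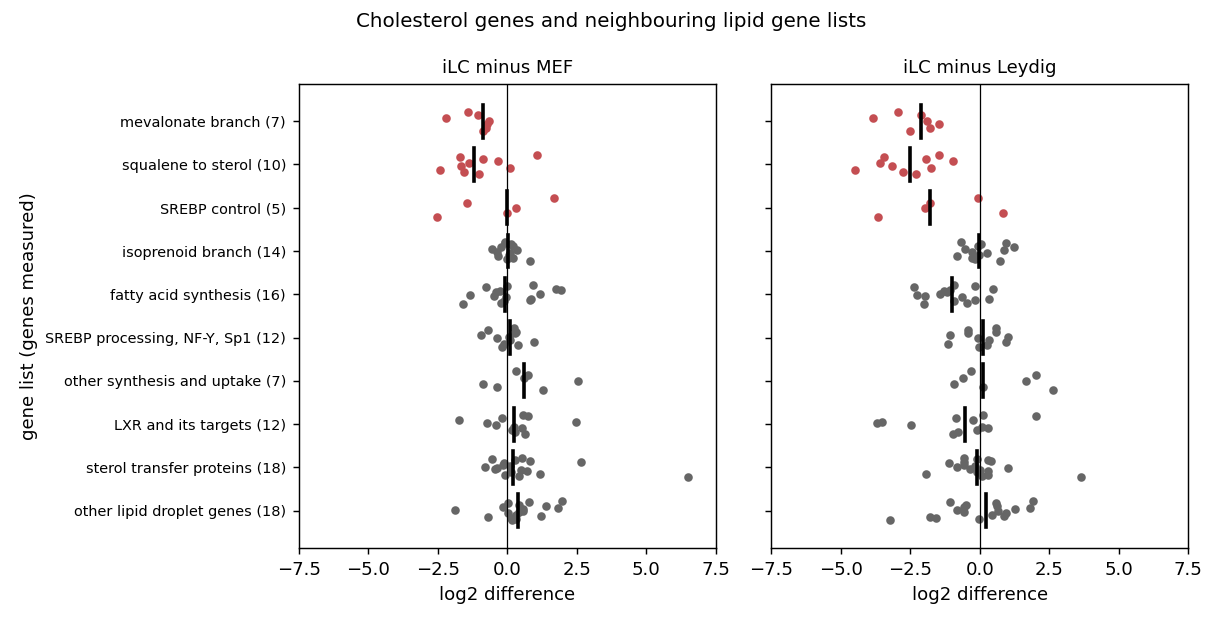
Log2 differences, iLC minus MEF (left) and iLC minus Leydig (right), of each gene of 3 member groups (red) and 7 neighbouring lists (grey), with the median as a black line. The medians of the mevalonate branch and of the squalene to sterol enzymes lie at -2.11 and -2.52 between iLC and Leydig cells, against -0.99 for fatty acid synthesis and -0.04 for the isoprenoid branch.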

How the data were processed

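Total RNA of the 5 samples carried Cy5 dye on arrays of 1 colour, per the labels' protocols. The deposited table holds 1 intensity per probe and array on a linear scale (26423 probes). The authors' scanning, background correction and normalization of these intensities were not given in the sources used here, and a background step would change dim probes most. Genes were named from the platform annotation: 21876 probes had 1 symbol, 4547 had none, and the probe with the highest mean log2 value stood for each of 19084 genes. Intensities below 0 (0 to 435 probes an array, most on iLC replicate 1) were set to 0, and log2(intensity + 16) was fitted with limma 3.58.1 in R 4.3.3, with 1 mean per group over all 5 arrays (2 residual degrees of freedom, 4.21 prior). Tests were two-sided, and p-values were adjusted by Benjamini-Hochberg over all genes with a threshold of 0.05. A fold understates changes of dim genes because of the 16 added. All 3 comparisons share arrays.

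The members and lists were chosen with earlier results of these data known. Named with the value on every array were members called in any comparison and the 5 with the largest difference in each, and the others were added so that all are accounted for. From neighbouring lists up to 4 called genes were named, or the 2 with the largest difference where none was called. Marker lists covered Leydig, fibroblast, macrophage, Sertoli, germ, endothelial and dividing cells. Alternatives were other pseudocounts, scalings, floors, a filter on dim genes, the mean of all probes, other arrays in the fit, a replicate block and leaving out each array. Some of these repeat each other. Fitting only iLC and Leydig arrays gave the calls of the main fit. In a comparison with MEF, fitting only the compared arrays gave those of leaving out 1 array of the third group. The fitting steps were tested on simulated data with 100 genes changed by a log2 difference of 2 and 100 by 4. For a change of 2, 8% were called between iLC and Leydig cells and 1% in each comparison with MEF. For a change of 4, 91% were called between iLC and Leydig cells, 77% between iLC and MEF and 70% between Leydig cells and MEF. A gene that did not pass may thus still differ by a log2 difference of 2. RefSeq promoter windows were searched on both strands.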

Additional observations from a re-analysis of the deposited data

How the results depend on the processing

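The median over the 31 cholesterol genes between iLC and Leydig cells stayed between -1.82 and -1.78 under the other settings and between -2.32 and -1.21 when 1 array was left out. Members called there numbered 16, 15 to 19 under the other settings, 8 to 12 without 1 array and 22 with the replicate block, which added Mvk, Pmvk, Mvd, Tm7sf2, Srebf1 and Srebf2. The replicate numbers occur in the iLC and Leydig pairs only, the differences within the pairs correlated at 0.06 across genes, and genes called numbered 3440 with the block, against 2170, and 696 to 1271 without 1 array. Between iLC and MEF 107 genes were called. With 64 added there were 290, with 1 added 9, with arrays centred on their medians 414, with quantile normalization 362, with the 1st percentile subtracted 6, with a floor 326, with dim genes left out 402, and with only the compared arrays, or without any 1 array, 0. Members called there numbered 2, 0, 2, 2, 0, 2, 4 and 0 under those settings in that order, and 0 without any 1 array, against 1; the median was -0.87 to -0.59. The cause of these moves was not tested, beyond the fewer arrays in the last settings. At an unadjusted p under 0.05, 4 members were higher and 11 lower between iLC and MEF, of 1060 and 1945 genes. Between Leydig cells and MEF 1394 genes were called (153 to 964 without 1 array) and 3 members, or 6 with 64 added, centring, quantile normalization or a floor, 8 with dim genes left out and 1 to 3 without 1 array; the median was 0.84 to 1.58. Of the single genes 11 values changed sign, none of them called. Between iLC and MEF, Insig2 was -0.039 with arrays centred, and Lipe 0.00428 with the 1st percentile subtracted. Without 1 array, Insig2 ranged from -0.17 to 0.20, Lipe from -0.18 to 0.13, Npc1 from -0.23 to 0.10 and Tm7sf2 from -0.10 to 0.28 between iLC and MEF, Mvk from -0.00502 to 2.06, Npc2 from -0.18 to 0.34 and Pmvk from -0.12 to 1.59 between Leydig cells and MEF, and Scap from -0.35 to 0.26 between iLC and Leydig cells. Dim probes such as those of Nsdhl and Stard4 in iLC limit how far their folds can be read.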

Other observations

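Genes that turn cholesterol into oxysterols and bile acid precursors were called in both directions. Ch25h, which makes an oxysterol that restrains SREBP, read 14456 and 6895 in iLC, 304 and 345 in Leydig cells and 24074 in MEF. It was higher in iLC than in Leydig cells (adjusted p = 0.00194) and lower in Leydig cells than in MEF (adjusted p = 0.00362). The Leydig readings are as dim as those of Cyp7a1, a liver enzyme (257 and 234), and may not lie above background, so no fold is given. Cyp27a1, the mitochondrial sterol hydroxylase, read 4369 and 5813 in iLC, 43513 and 24563 in Leydig cells and 1106 in MEF. Its iLC arrays lay between the Leydig arrays and the MEF array, 6.47-fold under Leydig cells (-2.69 ± 0.40 SE, adjusted p = 0.00991) and 2.17 above MEF without passing the test (adjusted p = 0.117). Hsd3b7, a bile acid pathway dehydrogenase, differed by -2.30 (adjusted p = 0.0108) between iLC and Leydig cells. Of the 10 genes of the list, 1 rose and 2 fell in iLC relative to Leydig cells, where 5.72% of all genes rose and 5.65% fell.

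Among 12 HDL and apolipoprotein genes, 2 fell in iLC relative to Leydig cells and 0 rose by limma's test. Of all genes 5.65% fell and 5.72% rose there. At an unadjusted p under 0.05, 4 of the 12 were lower and 1 higher, where 14.7% of all genes were lower. Lipg, the endothelial lipase that acts on HDL, read 2349.6 and 1728 in iLC, 77019.9 and 105865 in Leydig cells and 5288 in MEF. It was 44.5-fold lower in iLC than in Leydig cells (-5.47 ± 0.35 SE, adjusted p = 0.00109) and higher in Leydig cells than in MEF by 4.09 (adjusted p = 0.00572), with no overlap in either. Apod, a lipocalin carried on HDL, differed by -2.17 (adjusted p = 0.0398) between iLC and Leydig cells. Endothelial markers summed to 6017 and 6899 over the iLC pair, against 14312 and 9959 over the Leydig pair, and their part in the result was not tested.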
